A study of Mus musculus with 18 samples.

Results

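Isoproterenol (ISO) responses were measured in ABHD5-rescued brown adipocytes by comparing 3 libraries of cells given ISO with 3 libraries of cells given its vehicle, dimethyl sulfoxide (DMSO). These were 6 of the 18 libraries of the series, taken by their titles. Every group came from 1 immortalised mouse brown adipocyte line, in which a lentiviral shRNA stably lowers Abhd5. The same cells carry an shRNA-resistant ABHD5 tagged with mCherry, under the control of doxycycline in the vector pINDUCER20. They were differentiated with indomethacin added during the first days. Doxycycline (Dox) at 1 µg/ml, which the labels put at 24 to 48 h and a legend for this experiment at 24 h, was given only to the rescued cells, which the labels list as genotype WT although the shRNA is present, so effects of Dox and of the rescue cannot be told apart. DMSO or 10 nM ISO was then given for 3 h. Each group held 3 replicates of 1 infected population, from independent experiments by the study's methods, so the p-values measure the spread between repeats in 1 line. For tests of difference, ISO and DMSO cells without Dox (the knockdown state) and rescued cells given 20 µM SR-3420, a synthetic ABHD5 ligand, were also used, each with 3 libraries.

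ISO binds β-adrenergic receptors, which activate adenylyl cyclase through the stimulatory G protein and raise cyclic AMP. Cyclic AMP releases the catalytic subunits of protein kinase A (PKA), which phosphorylate transcription factors of the CREB family in the nucleus and perilipin and hormone-sensitive lipase on lipid droplets. Phosphorylated perilipin frees ABHD5 to activate the lipase ATGL, and the fatty acids released serve both as the fuel for heat production by uncoupled mitochondria and as ligands of the PPAR nuclear receptors.

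The counted length of genes lay within 10% of the non-exon length for 72.55% of 16559 genes matched to the mm9 annotation, as in counts over introns, whereas the study's methods name a count per gene and Abhd5, restored from a construct, was much higher with Dox. How far the counts follow unspliced RNA or mRNA was therefore not settled. Library totals were 1956565, 936712 and 906023 counts with DMSO and 1213883, 1367392 and 1169836 with ISO, and a median gene had 11 to 25 counts. Adipocyte markers summed to 4470 to 4951 CPM (counts scaled to a common library size, with TMM factors) with DMSO and 7364 to 7673 CPM with ISO. Brown adipocyte markers summed to 500 to 662 CPM with DMSO and 1317 to 2309 CPM with ISO, with Dio2 at 0. Preadipocyte markers gave 1192 to 1622 and 980 to 1193 CPM, with Gli1 at 0. Macrophage markers reached at most 23.1 CPM in any library, 10 of 12 having at most 3 counts and Lyz2, Cybb and Msr1 being at 0, and endothelial markers at most 37.8 CPM, 7 of 10 having at most 3 counts. Muscle markers reached at most 81.9 CPM, with 6 of 10 at 0, among them Myod1 and Myog. In bulk RNA, fewer cells of a type and less RNA per cell cannot be told apart. Abhd5 itself (NM_026179, chromosome 9, 122260734 to 122290641, plus strand of mm9) had 583, 656 and 484 CPM with DMSO and 813, 859 and 808 CPM with ISO. Without Dox it averaged 52.6 ± 4.71 CPM with DMSO and 149 ± 21.9 CPM with ISO (SD, n = 3), lower than in any library with Dox, and the share of construct reads in its counts was not tested. With Dox the ISO and DMSO groups did not overlap (log2 fold change 0.52, SE 0.14, edgeR adjusted p 0.00502), but the change did not pass with library totals only (0.39). A dagger on a gene's first mention marks a gene that overlaps another in the table or the annotation, so that its value is uncertain, because no source states that strand was used in counting.

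Of 17672 genes, 10178 were tested and 7494 had too few counts. A gene was called when its edgeR adjusted p was 0.05 or less and its log2 fold change at least 1 in size. ISO raised 633 genes (6.22% of those tested) and lowered 701 (6.89%) by this rule. The balance of calls depended on the scaling, since upper-quartile factors gave 511 higher and 935 lower and library totals only 489 and 975, the median log2 fold change of all genes then being -0.14 and -0.16 in place of -0.02. Lower calls outnumbered higher ones under every scaling, but not with at least 10 counts in every sample (395 higher and 299 lower), in DESeq2 (632 and 609), in a test against a fold of 1.5 (563 and 417), at an adjusted p of 0.01 (581 and 519) or with only the groups of the contrast (623 and 611). Nor did they without DMSO replicate 1 (670 and 652) or 3 (643 and 636), or without ISO replicate 2 (728 and 698) or 3 (652 and 586). At the adjusted p alone, 1669 genes were higher (16.4%) and 1640 lower (16.1%). The 3 ISO values lay wholly above the 3 DMSO values in 2164 genes (21.3%) and wholly below in 2178 (21.4%), and they did so for 620 of the genes called higher and 658 of those called lower. Large changes were mostly upward: a log2 fold change of 2 or more in size was reached by 128 called genes upward and 55 downward, and 3 or more by 31 and 6. Genes called higher held 4.2% to 4.51% of CPM in the DMSO libraries and 13.2% to 14.7% in the ISO libraries, and genes called lower 2.97% to 3.03% and 1.16% to 1.27%. ISO replicate 2 had the lowest of the ISO values in 324 of the 633 genes called higher, against 115 for replicate 1 and 194 for replicate 3.

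**Figure D1:**
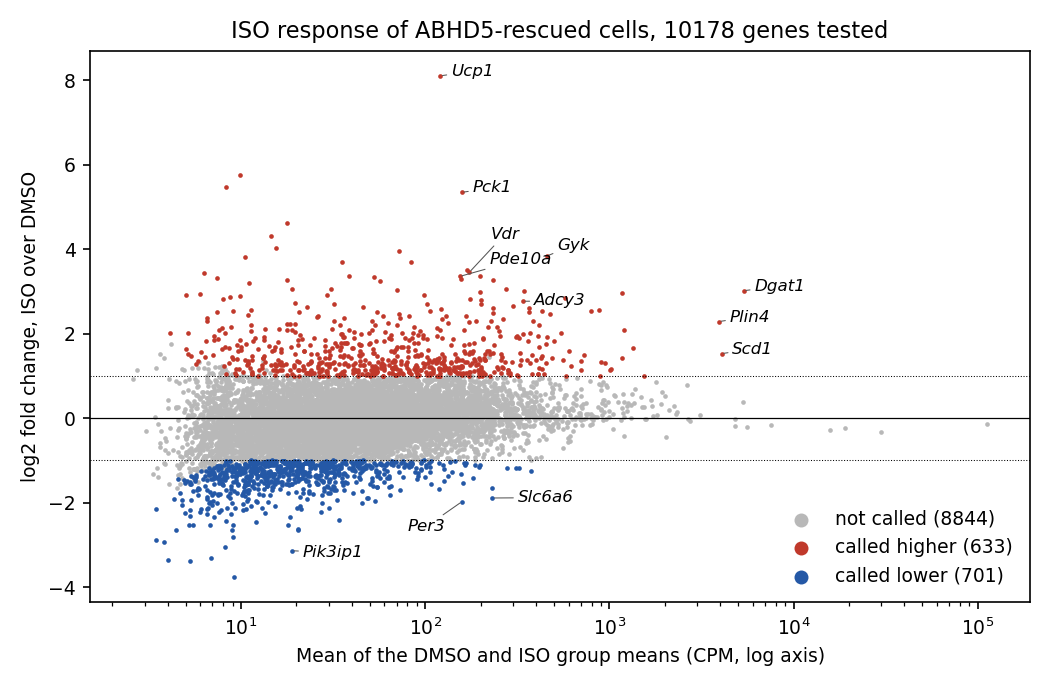
Log2 fold change of ISO over DMSO in rescued cells (vertical axis, fitted with edgeR) against the mean of the group means (horizontal axis, CPM, log axis), 1 point per tested gene. The 633 genes called higher (red) reach larger changes than the 701 called lower (blue). The level includes the ISO libraries and so moves with the change, and dotted lines mark the fold change limit of 1.

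The strongest rises by p covered several roles. Pde10a (NM_001290707, chromosome 17, 8719666 to 9179513, plus strand of mm9), a phosphodiesterase that degrades cyclic nucleotides, had 23.1, 31.2 and 30.3 CPM with DMSO and 301, 242 and 299 CPM with ISO (log2 fold change 3.36, SE 0.16, edgeR adjusted p 9.08e-15). Vdr (NM_009504, chromosome 15, 97684858 to 97738727, minus strand of mm9), the vitamin D receptor, had 19.7, 32.3 and 40.4 CPM with DMSO and 318, 327 and 305 CPM with ISO (log2 fold change 3.46, SE 0.20, edgeR adjusted p 1.60e-13). Both genes were at least 5 times as high in each ISO library as in any DMSO library. Apmap†, an adipocyte plasma membrane protein, rose by 3.05 (SE 0.15) on the log2 scale, Cpne8, a calcium-dependent phospholipid-binding copine, by 2.42 (SE 0.14), and Slc25a51, the mitochondrial NAD carrier, by 2.99 (SE 0.18). Bzw1, a regulator of translation start-site choice, rose by 2.53 (SE 0.15), and Csrp2, a LIM domain protein, by 2.65 (SE 0.16). Tpcn2, a lysosomal cation channel, had 60.2, 53.1 and 42.7 CPM with DMSO and 394, 267 and 383 CPM with ISO (log2 fold change 2.71, SE 0.16, edgeR adjusted p 2.97e-13). Among the 10 with the smallest p, 3110043O21Rik rose by 2.31 (SE 0.14), and Adcy3† is described with its pathway.

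Among genes called lower, Slc6a6 (NM_009320, chromosome 6, 91634061 to 91709057, plus strand of mm9), the taurine transporter, had the smallest p, with 353, 344 and 399 CPM with DMSO and 105, 93.7 and 97.2 CPM with ISO (log2 fold change -1.89, SE 0.15, edgeR adjusted p 5.51e-11). Per3 (NM_011067, chromosome 4, 150377764 to 150418774, minus strand of mm9), a clock repressor, had 230, 291 and 235 CPM with DMSO and 59.2, 68.5 and 63.5 CPM with ISO (log2 fold change -1.98, SE 0.16, edgeR adjusted p 5.51e-11). Neither gene's groups overlapped. Figf, which encodes the lymphatic growth factor VEGF-D, had 181, 170 and 191 CPM with DMSO and 50.9, 66.9 and 51 CPM with ISO (log2 fold change -1.68, SE 0.17, edgeR adjusted p 1.08e-08). Pik3ip1†, an inhibitor of phosphoinositide 3-kinase, had the largest fall of the 10, from 27.9, 36.4 and 38.2 CPM to 1.67, 5.51 and 3.85 CPM (log2 fold change -3.14, SE 0.34, edgeR adjusted p 2.32e-08). Adamts10, a matrix metalloprotease, fell by 1.90 (SE 0.20) on the log2 scale and Rnpep†, an arginyl aminopeptidase, fell by 1.82 (SE 0.17). Trafd1, a regulator of innate immune signalling, fell by 1.54 (SE 0.16). The other three were Lzts2†, a leucine zipper protein that binds β-catenin (-1.66), Plekhh3† (-2.01) and Poln†, a DNA polymerase (-1.56).

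**Figure D2:**
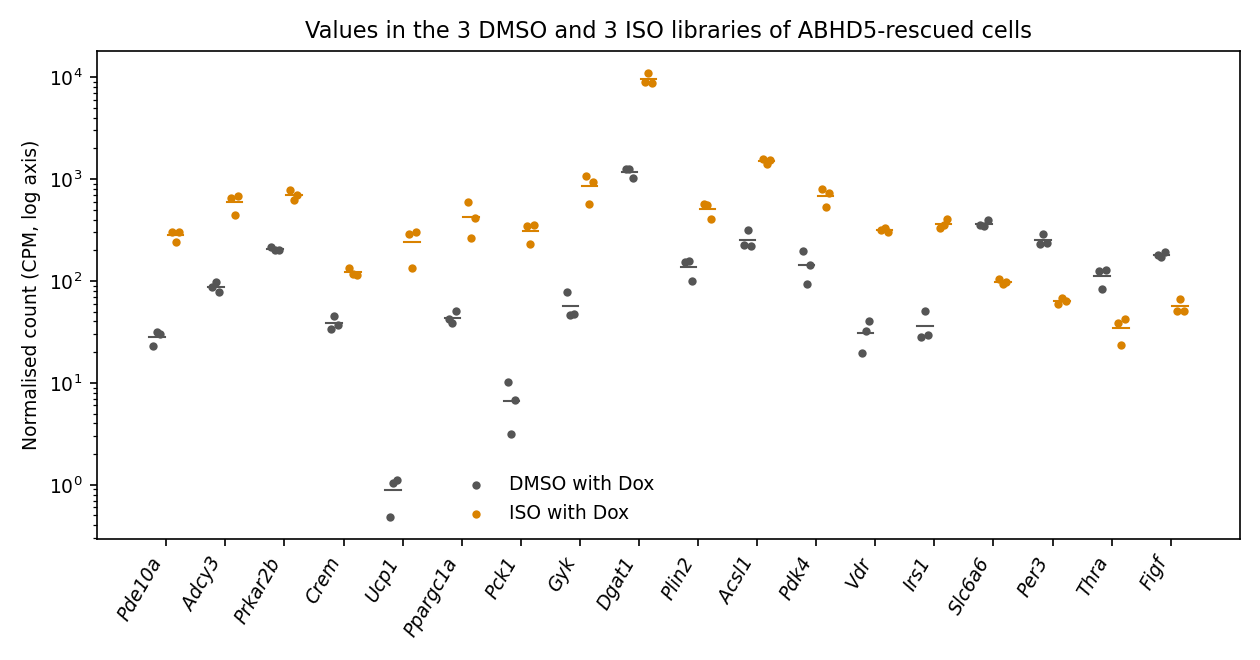
Normalised counts (CPM, log axis) of 18 genes in the 3 DMSO libraries (grey) and the 3 ISO libraries (orange), with 1 point per library and a line at the group mean. The groups overlap in none of the 18 genes, the first 14 being higher with ISO and Slc6a6, Per3, Thra and Figf lower.

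Promoter sequences were examined because CREB and PPAR bind known DNA motifs. RefSeq windows of 250 bases before the start (build GRCm38.p6) were available for 7808 tested genes. The full cAMP response element TGACGTCA, which reads the same on both strands, occurred in 16 of 469 genes called higher (3.41%), 9 of 523 called lower (1.72%) and 235 of all 7808 (3.01%). The E-box CACGTG, also its own reverse complement and the motif of clock and glucose-responsive factors, occurred in 10% of genes called higher, 8.03% of genes called lower and 10.2% of all. A direct repeat of AGGTCA with 1 base between, the motif of PPAR with RXR, occurred on either strand in 1, 0 and 3 genes. A match describes the letters of a window, not binding. Shown are windows of called genes with the smallest p for each motif, with the motif in capitals and each sequence written 5′ to 3′ toward the start. The first pair hold the cAMP response element, beginning 150 bases before the start of Slc25a25† (chr2:32424067-32424316, minus strand) and 169 before that of Cycs (chr6:50566570-50566819, minus strand). The third holds the E-box at Irs1† (chr1:82291440-82291689, minus strand) and the last the PPAR repeat at Isca1 (chr13:59769790-59770039, minus strand).
Slc25a25: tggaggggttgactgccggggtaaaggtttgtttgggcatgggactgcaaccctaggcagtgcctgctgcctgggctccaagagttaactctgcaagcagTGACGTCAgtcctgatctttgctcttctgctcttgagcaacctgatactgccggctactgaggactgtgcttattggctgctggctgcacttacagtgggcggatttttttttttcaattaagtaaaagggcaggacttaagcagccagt
Cycs: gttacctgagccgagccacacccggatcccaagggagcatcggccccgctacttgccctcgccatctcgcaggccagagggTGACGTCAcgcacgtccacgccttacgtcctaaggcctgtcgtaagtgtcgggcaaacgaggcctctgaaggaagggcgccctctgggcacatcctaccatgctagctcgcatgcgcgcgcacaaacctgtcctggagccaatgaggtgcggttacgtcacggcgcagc
Irs1: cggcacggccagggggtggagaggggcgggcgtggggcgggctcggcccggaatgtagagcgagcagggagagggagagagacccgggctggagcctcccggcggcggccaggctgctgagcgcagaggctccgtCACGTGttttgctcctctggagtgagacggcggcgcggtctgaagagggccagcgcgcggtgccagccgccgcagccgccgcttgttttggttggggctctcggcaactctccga
Isca1: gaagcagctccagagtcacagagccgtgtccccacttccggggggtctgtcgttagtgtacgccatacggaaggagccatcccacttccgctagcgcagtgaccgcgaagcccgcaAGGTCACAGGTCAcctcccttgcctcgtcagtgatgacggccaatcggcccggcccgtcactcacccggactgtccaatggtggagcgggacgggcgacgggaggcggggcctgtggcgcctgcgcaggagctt
Slc25a25, a calcium-regulated ATP-Mg and phosphate carrier of the inner mitochondrial membrane, had 4.81, 8.33 and 7.86 CPM with DMSO and 50.9, 59.9 and 52.9 CPM with ISO (log2 fold change 3.06, SE 0.27, edgeR adjusted p 5.75e-10). Cycs, cytochrome c, had 23.6, 15.6 and 24.7 CPM with DMSO and 107, 87.4 and 118 CPM with ISO (log2 fold change 2.25, SE 0.22, edgeR adjusted p 4.07e-09). Isca1, an iron-sulfur cluster assembly protein, had 19.7, 10.4 and 13.5 CPM with DMSO and 46.7, 33.9 and 35.6 CPM with ISO (log2 fold change 1.31, SE 0.28, edgeR adjusted p 0.000598). The groups overlapped for none of these, and Irs1 is described with insulin signalling.

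Components of the cAMP pathway itself changed in both directions. Of 24 tested receptors, G proteins and cyclases, 4 were called higher and 1 lower. Adcy3 (NM_001159537, chromosome 12, 4133397 to 4213524, plus strand of mm9), an adenylyl cyclase, had 86.7, 96.8 and 77.5 CPM with DMSO and 652, 443 and 688 CPM with ISO (log2 fold change 2.77, SE 0.17, edgeR adjusted p 2.63e-13). A second cyclase, Adcy6, rose by 0.96 (SE 0.14), under the fold limit, whereas Gnai2, an inhibitory G protein subunit, fell by 0.66 (SE 0.16). Adrb3, the β3-adrenergic receptor, had only 27.4, 0 and 37.1 CPM with DMSO and 97.5, 22.8 and 111 CPM with ISO, and its groups overlapped, although ISO was higher in 3 of 3 same-numbered pairs (log2 fold change 1.76, SE 0.54, edgeR adjusted p 0.0133). Leaving out ISO replicate 1 (1.53), ISO replicate 3 (1.44) or DMSO replicate 2 (1.29) ended that call, as did DESeq2 and limma-voom. The other called members were the cyclase Adcy5 (1.12, under the limit at 0.93 without DMSO replicate 1 and 0.87 without ISO replicate 2), the arrestin Arrb1 (1.09, under the limit at 0.86 without DMSO replicate 1 and 0.80 without ISO replicate 3) and the G protein regulator Rgs12 (-1.26, -1.91 without ISO replicate 2). Here and below, called members that the naming rule did not take were chosen after their values were seen.

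Among 17 tested PKA subunits, inhibitors and anchors, 4 were called higher and 1 lower, with a median of 0.33 on the log2 scale. Prkar2b, the regulatory subunit RIIβ of adipocytes, had 217, 201 and 203 CPM with DMSO and 774, 623 and 693 CPM with ISO (log2 fold change 1.75, SE 0.14, edgeR adjusted p 1.26e-10). Prkar1a, another regulatory subunit, rose by 0.79 (SE 0.12), while Prkaca, the main catalytic subunit, did not pass (-0.17, edgeR adjusted p 0.412). The anchor Akap13 had 51, 46.8 and 42.7 CPM with DMSO and 128, 132 and 140 CPM with ISO (log2 fold change 1.49, SE 0.16, edgeR adjusted p 3.07e-08). Akap2† (1.62), also an anchor, and Pkig† (1.06, under the limit at 0.81 without DMSO replicate 2 and 0.90 without ISO replicate 1), a PKA inhibitor peptide, were called higher, and Rapgef3†, the cAMP-activated exchange factor EPAC1, lower (-2.06, not passing at -1.24 without DMSO replicate 1). Phosphodiesterases, which end the cAMP signal, had 3 of 17 tested members called higher and none lower, with a median of 0.21. Besides Pde10a these were Pde3b, the insulin-activated enzyme of adipocytes, with 167, 265 and 160 CPM with DMSO and 712, 608 and 570 CPM with ISO (log2 fold change 1.69, SE 0.17, edgeR adjusted p 1.26e-08), and Pde4b, with 10.1, 7.29 and 10.1 CPM with DMSO and 24.2, 22.1 and 22.1 CPM with ISO (log2 fold change 1.28, SE 0.32, edgeR adjusted p 0.00283). The 3 ISO values lay above the 3 DMSO values for both.

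In the CREB family with its coactivators, SIK kinases and class IIa deacetylases, 4 of 19 tested members were called higher and 2 lower. Crem, whose internal promoter yields a cAMP-inducible repressor, had 33.7, 44.8 and 37.1 CPM with DMSO and 133, 117 and 115 CPM with ISO (log2 fold change 1.69, SE 0.18, edgeR adjusted p 2.54e-08). Creb1, the founding member, was lower (-1.24, not passing at -0.89 without DMSO replicate 3). Of the kinases that hold CREB coactivators and class IIa deacetylases in the cytosol, Sik3 was not called and the others rose, with 3.37, 8.33 and 8.99 CPM with DMSO and 30, 44.9 and 28.9 CPM with ISO for Sik1 (log2 fold change 2.51, SE 0.34, edgeR adjusted p 1.31e-06) and 221, 209 and 236 CPM with DMSO and 662, 469 and 598 CPM with ISO for Sik2† (log2 fold change 1.37, SE 0.13, edgeR adjusted p 3.07e-09). Members of the deacetylase family they control moved in opposite directions: Hdac4† had 22.6, 30.2 and 18 CPM with DMSO and 97.5, 107 and 88.6 CPM with ISO (log2 fold change 2.05, SE 0.20, edgeR adjusted p 3.82e-09), Hdac5 fell by 0.99 (SE 0.17) and Hdac7† by 1.09 (SE 0.20) (under the limit at -0.95 without DMSO replicate 1 and -0.91 without ISO replicate 2).

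Early-response transcription factors had 7 of 15 tested members called higher and 1 lower, with a median of 0.52. Fosl1†, a Fos-related partner of Jun, had 9.63, 6.25 and 8.99 CPM with DMSO and 171, 98.5 and 135 CPM with ISO (log2 fold change 3.95, SE 0.31, edgeR adjusted p 4.93e-11), and Nfil3, a basic leucine zipper repressor, had 29.4, 39.6 and 41.6 CPM with DMSO and 171, 128 and 151 CPM with ISO (log2 fold change 2.07, SE 0.17, edgeR adjusted p 1.21e-10). The NR4A orphan nuclear receptors, known cAMP targets, were all called. In each DMSO library Nr4a3 had at most 3 counts, and in the ISO libraries it reached 20, 18.9 and 19.3 CPM, at least 7.33-fold above the level of 3 counts. Nr4a1 had 43.8, 15.6 and 33.7 CPM with DMSO and 114, 96.9 and 87.6 CPM with ISO (log2 fold change 1.59, SE 0.23, edgeR adjusted p 4.62e-06), and Nr4a2 rose by 1.83 (SE 0.49). Fosl2 rose by 1.22 (SE 0.18) and the stress-induced Atf3 by 1.85 (SE 0.50). The member called lower was Egr1†, an immediate-early zinc finger factor, with 19.7, 13.5 and 14.6 CPM with DMSO and 5, 1.58 and 0 CPM with ISO (log2 fold change -2.81, SE 0.54, edgeR adjusted p 0.000203; -4.11 without ISO replicate 1).

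Nuclear receptors had 7 of 29 tested members called higher and 3 lower. Beside Vdr and the NR4A receptors, Ppara, the fatty acid receptor PPARα, had 18.3, 6.25 and 16.9 CPM with DMSO and 97.5, 18.9 and 75.1 CPM with ISO (log2 fold change 2.10, SE 0.51, edgeR adjusted p 0.00214). Its ISO values ranged widely but lay above all DMSO values. Pparg, the adipocyte receptor PPARγ, rose by 1.04 (SE 0.16) (under the limit at 0.95 without ISO replicate 1 and 0.97 without ISO replicate 3). Thra, a thyroid hormone receptor, had 124, 83.3 and 129 CPM with DMSO and 38.3, 23.6 and 42.4 CPM with ISO (log2 fold change -1.71, SE 0.21, edgeR adjusted p 2.64e-07), and Rarg, a retinoic acid receptor, fell by 1.18 (SE 0.22) (under the limit at -0.97 without ISO replicate 3). The other receptors of thyroid hormone and retinoids that passed also fell, Rxra by 0.99 (SE 0.26) and Rara by 0.87 (SE 0.18), under the fold limit. Of 21 coregulators, the 3 called were all higher, namely Ppargc1a, Ppargc1b and Ncoa1, a steroid receptor coactivator (1.35).

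Clock genes moved in both directions, with 4 of 17 tested core members called higher and 2 lower. Arntl, the activator BMAL1, had 40.9, 48.9 and 47.2 CPM with DMSO and 85.9, 102 and 86.6 CPM with ISO (log2 fold change 1.02, SE 0.16, edgeR adjusted p 1.72e-05; under the limit at 0.93 without DMSO replicate 1 and 0.97 without ISO replicate 2). Its partner Npas2 was higher (1.10, not passing at 1.02 without DMSO replicate 1, 0.96 without ISO replicate 1 and 1.00 without ISO replicate 3), as was the repressor Cry1, with 16.8, 10.4 and 18 CPM with DMSO and 40.9, 29.1 and 26 CPM with ISO (log2 fold change 1.06, SE 0.27, edgeR adjusted p 0.00369; under the limit at 0.90 without DMSO replicate 2 and 0.84 without ISO replicate 1). The repressors Per3 and Cry2† fell, Cry2 by 0.94 (SE 0.24), below the fold limit. Rorb, an orphan nuclear receptor with at most 3 counts in each DMSO library, was at least 7.45-fold higher. The output repressor Bhlhe40† rose by 1.60 (SE 0.30) and the activator Tef fell by 0.91 (SE 0.14). Kruppel-like factors had 3 of 10 tested members called lower and none higher, with a median of -0.60. Klf3, a repressor of adipogenesis, fell by 1.12 (SE 0.29), and Klf15, a metabolic activator, by 0.78 (SE 0.19), under the limit. The other called members were Klf13 (-1.04, under the limit at -0.78 without DMSO replicate 2, -0.92 without ISO replicate 1 and -0.96 without ISO replicate 3) and Klf16 (-1.44, not passing at -0.79 without DMSO replicate 1, -1.07 without ISO replicate 1 and -1.26 without ISO replicate 2, and -2.12 without ISO replicate 3).

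Thermogenic genes had 8 of 18 tested members called higher and 1, Thra, lower, with a median of 0.95. Ucp1 (NM_009463, chromosome 8, 85814247 to 85822355, plus strand of mm9), the uncoupling protein of brown fat, had at most 3 counts in each DMSO library and 289, 135 and 299 CPM with ISO, at least 91.1-fold higher. Zfp516, a transcription factor that binds the Ucp1 promoter, had 26, 30.2 and 25.8 CPM with DMSO and 187, 172 and 172 CPM with ISO (log2 fold change 2.70, SE 0.18, edgeR adjusted p 1.96e-12). Prdm16†, the brown fat determination factor, had 28.9, 29.1 and 38.2 CPM with DMSO and 178, 88.2 and 161 CPM with ISO (log2 fold change 2.17, SE 0.24, edgeR adjusted p 5.89e-08). These differences between groups exceeded the spread within them. Ppargc1a, the coactivator PGC-1α, had 41.9, 38.5 and 50.6 CPM with DMSO and 597, 261 and 410 CPM with ISO (log2 fold change 3.28, SE 0.29, edgeR adjusted p 4.62e-10), and its relative Ppargc1b rose by 2.50 (SE 0.26). Irf4, a cAMP-induced partner of PGC-1α, rose by 2.02 (SE 0.20), and Nrg4†, a brown fat neuregulin, by 2.14 (SE 0.19). Cidea†, a brown fat lipid droplet protein, rose by 1.28 (SE 0.27) and the potassium channel Kcnk3 by 0.92 (SE 0.16), the latter below the limit.

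Mitochondrial genes moved by smaller steps and mostly upward. Of 77 tested nuclear-encoded subunits of oxidative phosphorylation, 51 passed the adjusted p higher and none lower, against 16.4% of all genes higher, but only 4 were called at the fold limit. Their median was 0.55 with TMM factors and 0.41 to 0.67 over the alternatives. Ndufa10 of complex I had 96.8, 106 and 85.4 CPM with DMSO and 202, 149 and 214 CPM with ISO (log2 fold change 0.96, SE 0.15, edgeR adjusted p 8.29e-06), and Sdhb of complex II had 185, 198 and 215 CPM with DMSO and 354, 322 and 399 CPM with ISO (log2 fold change 0.85, SE 0.14, edgeR adjusted p 2.18e-05). ATP synthase subunits Atp5o† and Atp5h rose by 0.85 (SE 0.15) and 0.83 (SE 0.14). Besides Cycs, the called members were Uqcrfs1 of complex III (2.03), Cox6c of complex IV (1.17) and Ndufb7 of complex I (1.04), the last not passing at 0.84 without DMSO replicate 2, 1.06 without DMSO replicate 3, 0.85 without ISO replicate 1 and 1.11 without ISO replicate 3, as well as with library totals only (0.90), with upper-quartile factors (0.92), with no filter on low counts, in DESeq2 and with only the groups of the contrast. Of 39 mitochondrial carriers, 4 were called higher and 2 lower, with a median of 0.32. Slc25a20, the carnitine and acylcarnitine carrier, rose by 1.25 (SE 0.23). The carriers called lower, Slc25a27 (-1.70) and Slc25a14 (-1.29, not passing at -1.20 without DMSO replicate 2 and -1.13 without ISO replicate 1), belong to the uncoupling protein family. In the list for mitochondrial biogenesis and dynamics, 12 of 27 passed higher, 2 of them (Ppargc1a and Ppargc1b) past the fold limit, and Polg2†, a subunit of the mitochondrial DNA polymerase, was called lower (-1.03, under the limit at -0.94 without DMSO replicate 2 and -0.88 without ISO replicate 3). Smaller rises were seen for the cristae protein Chchd3† (0.81) and the fission GTPase Dnm1l (0.68), whereas the fission adaptor Fis1 fell by 0.73 (SE 0.15).

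PPAR target genes had 11 of 24 tested members called higher and 1 lower, 18 passing the adjusted p higher, with a median of 0.96. Pck1 (NM_011044, chromosome 2, 172978574 to 172984754, plus strand of mm9), the cytosolic PEPCK that starts glyceroneogenesis, had 10.1, 3.12 and 6.74 CPM with DMSO and 345, 232 and 354 CPM with ISO (log2 fold change 5.35, SE 0.33, edgeR adjusted p 2.97e-13), with 5.96 without DMSO replicate 1. Gyk† (NM_008194, chromosome X, 82947276 to 83022158, minus strand of mm9), glycerol kinase, had 78.5, 45.8 and 47.2 CPM with DMSO and 1079, 562 and 927 CPM with ISO (log2 fold change 3.84, SE 0.24, edgeR adjusted p 6.33e-13). Acsl1, which activates long-chain fatty acids, had 223, 316 and 218 CPM with DMSO and 1562, 1388 and 1530 CPM with ISO (log2 fold change 2.57, SE 0.17, edgeR adjusted p 1.83e-12). The ISO values of these genes were well clear of the DMSO values. Pdk4, the kinase that switches pyruvate dehydrogenase off, had 196, 93.7 and 144 CPM with DMSO and 803, 532 and 726 CPM with ISO (log2 fold change 2.21, SE 0.24, edgeR adjusted p 3.07e-08). Acadl, a mitochondrial acyl-CoA dehydrogenase, rose by 1.23 (SE 0.16). Fabp3†, the fatty acid-binding protein of heart and brown fat, was the 1 target called lower, with 16.8, 23.9 and 8.99 CPM with DMSO and 5.84, 4.73 and 4.81 CPM with ISO (log2 fold change -1.69, SE 0.45, edgeR adjusted p 0.00427).

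The lipolysis and lipid droplet list had 9 of 25 tested members called higher and none lower, with a median of 0.59. Of the lipases, Pnpla2, which encodes ATGL, rose by 0.59 (SE 0.14), and Mgll†, monoglyceride lipase, by 1.19 (SE 0.17) (under the limit at 0.97 without ISO replicate 1). Among droplet coat proteins, Plin2 had 152, 158 and 100 CPM with DMSO and 566, 561 and 405 CPM with ISO (log2 fold change 1.89, SE 0.23, edgeR adjusted p 3.29e-07), and Plin4† had 1344, 1592 and 1070 CPM with DMSO and 6672, 6832 and 6136 CPM with ISO (log2 fold change 2.29, SE 0.22, edgeR adjusted p 2.26e-09). Hilpda, an inhibitor of ATGL, had 2.89, 0 and 1.12 CPM with DMSO and 40, 29.1 and 20.2 CPM with ISO (log2 fold change 4.02, SE 0.54, edgeR adjusted p 1.12e-06; 5.53 without DMSO replicate 1). Clstn3, whose adipose isoform limits lipid droplet fusion, rose by 2.53 (SE 0.17), and Tmem120a, a nuclear envelope protein of adipocytes, by 2.00 (SE 0.14). Both genes and Apmap belong to this list, which was written with earlier results of these data known. Its count of calls is therefore a description, not a test. Plin5 (0.51) and the ATGL inhibitor G0s2 (0.37) did not pass, with edgeR adjusted p of 0.221 and 0.415.

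Fatty acid uptake and activation had 5 of 23 tested members called higher and 2 lower. Acsl4 had 41.9, 44.8 and 43.8 CPM with DMSO and 332, 324 and 259 CPM with ISO (log2 fold change 2.82, SE 0.20, edgeR adjusted p 5.44e-12), and Ffar4, the receptor GPR120 for long-chain fatty acids, had 24.6, 27.1 and 31.5 CPM with DMSO and 383, 186 and 365 CPM with ISO (log2 fold change 3.52, SE 0.25, edgeR adjusted p 7.50e-12). Fabp4 and Fabp5, cytosolic fatty acid-binding proteins, rose by 2.38 (SE 0.27) and 1.83 (SE 0.22), and Lpl, lipoprotein lipase, by 0.69 (SE 0.16). Slc27a1, the transporter FATP1, fell by 1.12 (SE 0.20) (under the limit at -0.95 without DMSO replicate 3 and -0.95 without ISO replicate 1). Among 42 tested genes of fatty acid oxidation, 7 were called higher and 4 lower, and 19 passed the adjusted p higher, with a median of 0.22. Pex5, the import receptor of peroxisomes, had 88.1, 83.3 and 92.1 CPM with DMSO and 479, 409 and 444 CPM with ISO (log2 fold change 2.34, SE 0.15, edgeR adjusted p 4.12e-13), and Crat†, carnitine acetyltransferase, had 189, 246 and 224 CPM with DMSO and 791, 750 and 801 CPM with ISO (log2 fold change 1.84, SE 0.14, edgeR adjusted p 1.65e-11). Acaa1b†, a peroxisomal thiolase whose close paralogue Acaa1a† may share reads, had 394, 195 and 197 CPM with DMSO and 2629, 1888 and 1743 CPM with ISO (log2 fold change 2.97, SE 0.23, edgeR adjusted p 5.81e-11). Abcd2, a peroxisomal fatty acid transporter, was lower (-1.14), but had overlapping groups and lost its adjusted p without DMSO replicate 1 (-1.15) or DMSO replicate 2 (-0.99) or ISO replicate 1 (-0.86) or ISO replicate 3 (-0.88), while without ISO replicate 2 it was at -1.87. Acad12, an acyl-CoA dehydrogenase family member, was lower (-1.91), as was Decr2, a peroxisomal reductase (-1.05, not passing at -0.69 without DMSO replicate 3 and -0.83 without ISO replicate 1, and under the limit at -0.98 without ISO replicate 3).

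Triglyceride synthesis genes had 6 of 25 tested members called higher and 1 lower, with a median of 0.40. Dgat1 (NM_010046, chromosome 15, 76332445 to 76342248, minus strand of mm9), which adds the last acyl chain, had 1253, 1249 and 1018 CPM with DMSO and 8980, 10952 and 8734 CPM with ISO (log2 fold change 3.02, SE 0.20, edgeR adjusted p 1.83e-12), the highest level of any gene called higher in terms of CPM. Its partner enzyme Dgat2 did not pass (-0.30, edgeR adjusted p 0.273). Agpat9†, the glycerol-phosphate acyltransferase GPAT3, had 29.4, 47.9 and 30.3 CPM with DMSO and 222, 225 and 178 CPM with ISO (log2 fold change 2.58, SE 0.21, edgeR adjusted p 7.35e-11). Lpin1, a phosphatidate phosphatase, rose by 1.17 (SE 0.14), whereas its relative Lpin3† was lower (-2.18). The enzymes of fatty acid synthesis did not move as a block, with 1 of 22 called higher, none lower and a median of -0.31. Scd1, stearoyl-CoA desaturase, had 1847, 2442 and 1990 CPM with DMSO and 5367, 7066 and 5722 CPM with ISO (log2 fold change 1.53, SE 0.23, edgeR adjusted p 5.54e-06). Acaca†, acetyl-CoA carboxylase 1, rose by 0.77 (SE 0.15), while the desaturase Fads1 fell by 0.68 (SE 0.14) and the carbohydrate-responsive factor Mlxipl (ChREBP) fell by 0.75 (SE 0.16). Sterol synthesis and LXR target genes had a median of -0.31, with 2 of 30 called higher and 3 lower. Mylip, the ligase that degrades the LDL receptor, fell by 1.38 (SE 0.23), Tm7sf2†, a sterol reductase, by 1.54 (SE 0.38), and Mvk, mevalonate kinase, by 1.12 (SE 0.29) (under the limit at -0.95 without DMSO replicate 3 and -0.89 without ISO replicate 3). Abcg1, a cholesterol exporter (1.02, under the limit at 0.99 without DMSO replicate 3 and 0.98 without ISO replicate 1), and Hsd17b7 (1.10, under the limit at 0.83 without ISO replicate 2) were the members called higher.

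Glucose use genes had 9 of 29 tested members called higher and 2 lower, with a median of 0.51. At the adjusted p alone 18 passed higher and 4 lower, against 16.4% and 16.1% of all genes, and 7 did not pass. Hk2†, the insulin-regulated hexokinase, had 8.18, 10.4 and 5.62 CPM with DMSO and 45.9, 34.7 and 52.9 CPM with ISO (log2 fold change 2.43, SE 0.28, edgeR adjusted p 9.43e-08). Pfkfb3, which makes the activator of phosphofructokinase, had 570, 733 and 627 CPM with DMSO and 2188, 1782 and 2113 CPM with ISO (log2 fold change 1.66, SE 0.16, edgeR adjusted p 5.68e-09). Both genes were separated between the groups. The lactate transporter Slc16a1 rose by 1.91 (SE 0.23) and its relative Slc16a3† by 2.00 (SE 0.30). Mpc1†, which brings pyruvate into mitochondria, rose by 1.25 (SE 0.16) and the glycolytic enzyme Pgam1 by 1.39 (SE 0.15). Slc2a4, the insulin-responsive transporter GLUT4, did not pass (0.21, edgeR adjusted p 0.365). The members called lower were Slc2a9, a urate transporter with overlapping groups (-1.09, not passing at -0.89 without DMSO replicate 3 and -0.93 without ISO replicate 2, and under the limit at just short of -1 without ISO replicate 1), and the muscle isoform Pgam2 (-1.07, under the limit at -0.92 without DMSO replicate 2, -0.91 without ISO replicate 1 and -0.95 without ISO replicate 3). In the pyruvate dehydrogenase list 7 of 11 passed higher, only Pdk4 past the fold limit, and none lower. Its core members Dld and Dlat rose by 0.87 (SE 0.14) and 0.82 (SE 0.14), and the kinase Pdk2† by 0.95 (SE 0.24).

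Glycogen and hexosamine genes had 5 of 22 tested members called higher and 2 lower, with a median of 0.27. Uap1 makes the donor sugar UDP-N-acetylglucosamine and had 150, 124 and 147 CPM with DMSO and 859, 1293 and 877 CPM with ISO (log2 fold change 2.84, SE 0.19, edgeR adjusted p 2.19e-12). Gfpt2, the entry enzyme of that pathway, had 13.5, 10.4 and 13.5 CPM with DMSO and 76.7, 79.6 and 80.9 CPM with ISO (log2 fold change 2.63, SE 0.21, edgeR adjusted p 9.81e-11). Glycogen synthase, Gys1†, rose by 1.34 (SE 0.17) and its primer glycogenin, Gyg, by 1.07 (SE 0.16) (under the limit at 0.93 in the lowest of the alternatives), and Pygl, liver glycogen phosphorylase, was higher (1.01, under the limit at 0.96 without DMSO replicate 1, 0.97 without DMSO replicate 3 and 0.86 without ISO replicate 1). Among subunits of phosphorylase kinase, which starts glycogen breakdown, Phka2† fell by 0.95 (SE 0.15), Phkg2† by 1.04 (SE 0.26) (not passing at -0.79 without DMSO replicate 1, and under the limit at -0.88 without ISO replicate 2) and Phkg1† by 1.09 (SE 0.32) (not passing at -0.79 without ISO replicate 3). Of the other two tested subunits, 1 passed lower under the fold limit and 1 did not pass.

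Amino acid and integrated stress genes had 7 of 27 tested members called higher and none lower, with a median of 0.48. Aldh18a1, which starts proline synthesis, had 296, 322 and 281 CPM with DMSO and 791, 1143 and 784 CPM with ISO (log2 fold change 1.60, SE 0.19, edgeR adjusted p 1.20e-07). Cth, which makes cysteine, rose by 1.99 (SE 0.27), and Asns, asparagine synthetase, by 1.38 (SE 0.28). Slc3a2, the heavy chain shared by several amino acid exchangers, had 104, 125 and 97.7 CPM with DMSO and 355, 284 and 295 CPM with ISO (log2 fold change 1.52, SE 0.15, edgeR adjusted p 4.11e-09). Among amino acid transporters, 7 of 29 were called higher and 3 lower, Slc7a8 and Slc1a4 rising by 2.45 (SE 0.45) and 1.85 (SE 0.33) and Slc6a9†, a glycine transporter, falling by 1.55 (SE 0.26). Slc43a2, a carrier of large neutral amino acids, was lower beside Slc6a6 (-1.15, not passing at -1.11 without DMSO replicate 2, -1.01 without DMSO replicate 3 and -0.79 without ISO replicate 1 or in DESeq2). Endoplasmic reticulum folding and degradation genes had 1 of 37 called higher and 2 lower. Dnajb9, a lumenal chaperone, rose by 1.65 (SE 0.33), Herpud1†, a membrane component of degradation, fell by 1.07 (SE 0.20) (under the limit at -0.96 without DMSO replicate 2 and -0.78 without ISO replicate 2), Derl3 fell by 1.38 (SE 0.35), and Hspa5, the main lumenal chaperone, did not pass (0.32, edgeR adjusted p 0.221). A list of unfolded protein response markers taken from the study had 4 of 18 called higher (Dnaja4† by 2.92 (SE 0.28), with Dnajb9, Asns and Atf3) and 1, Dusp1, lower.

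Autophagy and lysosome genes had 6 of 72 tested members called higher, near the 6.22% of all genes, and none lower. In this list 19 passed higher, against 16.4% of all genes, with a median of 0.24. Atg101, a subunit of the initiation complex, had 99.7, 83.3 and 80.9 CPM with DMSO and 283, 233 and 251 CPM with ISO (log2 fold change 1.52, SE 0.13, edgeR adjusted p 6.14e-10). Gabarapl1†, an autophagosome membrane protein, rose by 1.20 (SE 0.19), Flcn, folliculin, by 1.19 (SE 0.19) and Wipi2 by 1.08 (SE 0.13) (under the limit at 0.94 in the lowest of the alternatives). Antioxidant and NADPH-producing genes had 7 of 52 called higher and 4 lower. Sod2, the mitochondrial superoxide dismutase, had 93.9, 83.3 and 82 CPM with DMSO and 368, 281 and 326 CPM with ISO (log2 fold change 1.90, SE 0.17, edgeR adjusted p 7.48e-10), and Aifm2†, the ferroptosis suppressor FSP1, had 188, 200 and 184 CPM with DMSO and 797, 656 and 732 CPM with ISO (log2 fold change 1.93, SE 0.13, edgeR adjusted p 2.84e-12). Srxn1, sulfiredoxin, rose by 1.79 (SE 0.28). The glutathione transferases Gstm1 and Gstt1 fell by 1.16 (SE 0.14) and 1.63 (SE 0.37), and Gpx3, a secreted glutathione peroxidase (-1.24, not passing at -0.92 without DMSO replicate 1, -1.13 without ISO replicate 1 and -1.20 without ISO replicate 3), and Nnt, which makes mitochondrial NADPH (-1.01, not passing at -0.75 without ISO replicate 1 and -0.82 without ISO replicate 3, and under the limit at -0.96 without DMSO replicate 1 and -0.98 without DMSO replicate 3), were also lower.

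Insulin and IGF signalling had 6 of 39 tested members called higher and 4 lower. Irs1 (NM_010570, chromosome 1, 82229680 to 82288014, minus strand of mm9), the insulin receptor substrate, had 28.4, 51 and 29.2 CPM with DMSO and 329, 354 and 402 CPM with ISO (log2 fold change 3.36, SE 0.22, edgeR adjusted p 1.10e-12), and Irs2† had 53.4, 38.5 and 49.4 CPM with DMSO and 212, 151 and 190 CPM with ISO (log2 fold change 1.94, SE 0.18, edgeR adjusted p 2.53e-09). Mtor†, the growth kinase, rose by 1.35 (SE 0.14). Trib1, a pseudokinase, rose by 2.39 (SE 0.37). The members called lower were Pik3r2, a regulatory subunit of phosphoinositide 3-kinase (-1.41), Foxo6 (-2.25), the IGF1 receptor Igf1r (-1.24, not passing at -0.95 without ISO replicate 2) and the adaptor Grb14 (-1.24, not passing at -1.16 without DMSO replicate 3 and -0.89 without ISO replicate 2). MAP kinase phosphatases with Sprouty and Spred genes had 3 of 16 called higher and 4 lower. Dusp10 rose by 2.21 (SE 0.24) and Dusp16 by 2.09 (SE 0.35), and Dusp5, a nuclear ERK phosphatase, had 13, 6.25 and 5.62 CPM with DMSO and 120, 74.8 and 95.3 CPM with ISO (log2 fold change 3.35, SE 0.30, edgeR adjusted p 6.14e-10; 0.65 more without DMSO replicate 1). The 4 called lower, Dusp1 (-1.22, not passing at -1.08 without DMSO replicate 1, -1.24 without DMSO replicate 3, -1.09 without ISO replicate 2 and -1.11 without ISO replicate 3 or in DESeq2 or with no filter on low counts or in limma-voom), Dusp7 (-1.81, not passing at -1.60 without DMSO replicate 1 and -1.50 without ISO replicate 1), Dusp13† (-1.44, not passing at -1.09 without ISO replicate 1 and -1.29 without ISO replicate 3, and -2.11 without ISO replicate 2) and Spry1 (-1.48, not passing at -1.03 without DMSO replicate 1, -1.46 without DMSO replicate 3, -1.03 without ISO replicate 1 and -1.10 without ISO replicate 3 or in DESeq2, and -3.15 without ISO replicate 2), each lost the adjusted p in at least 1 alternative. In the MAP kinase cascade 1 of 44 was called higher, Map3k5 (1.29), and 4 lower, the kinases Map3k12† (-1.60), Map3k4 (-1.21), Map4k1 (-2.03, -2.80 without ISO replicate 2) and Mapk11 (-1.25, not passing at -1.21 without DMSO replicate 1, -1.27 without ISO replicate 1 and -1.08 without ISO replicate 2 or in DESeq2).

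Developmental pathways held calls in both directions. Hippo and Notch genes had 5 of 24 called higher and 1 lower. Tead1†, the DNA-binding partner of YAP and TAZ, had 25, 36.4 and 42.7 CPM with DMSO and 136, 78.8 and 96.3 CPM with ISO (log2 fold change 1.65, SE 0.22, edgeR adjusted p 1.36e-06), and Wwtr1, which encodes TAZ, rose by 1.30 (SE 0.15), as did the scaffold Sav1†, by 1.37 (SE 0.14), and Amotl2, by 1.26 (SE 0.21). The receptor Notch3† was higher (1.02, under the limit at 0.93 without DMSO replicate 1 and 0.96 without DMSO replicate 2) and the Notch target Heyl lower (-1.19, not passing at -1.18 without DMSO replicate 2, -1.13 without DMSO replicate 3, -1.22 without ISO replicate 1, -1.15 without ISO replicate 2 and -1.15 without ISO replicate 3 or in DESeq2 or with no filter on low counts). Of 32 TGF-β and BMP genes 3 were called, all higher. Acvr1b, the activin receptor ALK4, had 90.5, 70.8 and 84.3 CPM with DMSO and 288, 334 and 233 CPM with ISO (log2 fold change 1.79, SE 0.14, edgeR adjusted p 7.04e-11), while Tgfbr3 and Ltbp2† rose by 1.33 (SE 0.19) and 1.17 (SE 0.13). Wnt genes had 5 of 26 called lower and none higher, with a median of -0.19. Daam2, a formin of Wnt signalling, had 79, 110 and 66.3 CPM with DMSO and 12.5, 34.7 and 16.4 CPM with ISO (log2 fold change -1.97, SE 0.32, edgeR adjusted p 2.43e-05), Prickle1 fell by 1.83 (SE 0.33), the ligand Wnt2b by 1.98 (SE 0.42) and the receptor Fzd4 by 1.60 (SE 0.41), and Apc2† was lower (-1.92, not passing at -1.42 without DMSO replicate 2, -1.69 without ISO replicate 1 and -1.77 without ISO replicate 3 or in limma-voom). The coreceptor Lrp6 was the 1 member that passed higher (0.81).

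Secreted factors had 3 of 30 tested members called higher and 3 lower. Metrnl, meteorin-like, had 12, 10.4 and 12.4 CPM with DMSO and 49.2, 55.1 and 48.1 CPM with ISO (log2 fold change 2.11, SE 0.28, edgeR adjusted p 1.12e-06), and Rbp4, the retinol carrier, rose from between 337 and 409 CPM with DMSO to 1254, 796 and 1180 CPM with ISO (edgeR adjusted p 1.50e-08). Pgf, a ligand of the VEGF receptor FLT1, had 20.2, 12.5 and 34.8 CPM with DMSO and 7.5, 3.94 and 1.93 CPM with ISO (log2 fold change -2.25, SE 0.41, edgeR adjusted p 9.77e-05), so that both growth factors of the VEGF family called, Figf and Pgf, were lower, while Vegfa rose by 0.78 (SE 0.16), under the limit. Kitl, stem cell factor, was lower (-1.04, not passing at -0.77 without ISO replicate 3, and under the limit at -0.93 without DMSO replicate 2). Matrix proteases and inhibitors had 1 of 34 called higher, Adamts9† (2.31), and 4 lower, Adamts10, Adamts5 (-1.70), Adamts7 (-1.33) and Adam8† (-2.34, -3.04 without ISO replicate 2), with a median of -0.30. Collagens and their enzymes had 4 of 40 called higher and 2 lower, namely the prolyl hydroxylase P4ha1 (1.56), Col14a1 (1.85), Col27a1 (1.42) and the crosslinking enzyme Loxl2† (1.06, under the limit at 0.97 without DMSO replicate 1 and 0.92 without ISO replicate 1) against Col11a2 (-1.11) and Lox (-1.01, under the limit at -0.93 without DMSO replicate 1, -0.99 without DMSO replicate 2 and -0.87 without ISO replicate 2).

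Forkhead, Sox, Hox, T-box and related factors had 8 of 42 called lower and 1, Gata6† (1.13, not passing at 0.71 without DMSO replicate 1), higher, with a median of -0.24. Nfix†, a nuclear factor I protein, had 159, 167 and 253 CPM with DMSO and 68.4, 63.8 and 90.5 CPM with ISO (log2 fold change -1.37, SE 0.20, edgeR adjusted p 4.45e-06), and Ebf4 fell by 2.13 (SE 0.41). F-box and TRIM ubiquitin ligases had 9 of 85 called lower and 2 higher, with a median of -0.22, for example Fbxo31† (-1.15) and Fbxl19 (-1.26) against Trim66 (2.53) and Fbxo34 (1.13, not passing at 0.93 without ISO replicate 1). Genes named Zfp, C2H2 zinc finger factors, had 11 of 199 called lower and 6 higher, with a median of -0.14. The share called lower among zinc finger genes lay near the 6.89% of all genes. Ribosomal proteins had 1 of 69 called in each direction, Rpl31† (1.07, not passing at 0.81 without DMSO replicate 3 or with library totals only) and Rpl5† (-1.25). At the adjusted p, 12 passed higher, near the 16.4% of all genes, but only 1 lower, against 16.1% of all genes, with a median of 0.27. Of 13 genes often used as references, none was called, but Hprt rose by 0.78 (SE 0.14) and Gusb and Ppia fell by 0.94 (SE 0.22) and 0.92 (SE 0.21).

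Several lists held calls at shares no more than 1.5 times the 6.22% called higher and the 6.89% called lower over all genes. These counts of calls are no result about the lists. Beside the oxidative phosphorylation, pyruvate dehydrogenase, mitochondrial biogenesis, fatty acid synthesis, sterol, endoplasmic reticulum, autophagy, MAP kinase cascade, zinc finger and ribosomal lists, these included calcium handling, NAD and polyamine metabolism, histone demethylases and methyltransferases, the cell cycle, Rab GTPases and interferon-stimulated genes. Calcium handling had 1 of 42 tested members called higher, the mechanosensitive channel Piezo1† (1.20), and 3 lower, the mitochondrial exchanger Slc8b1 (-1.18), the kinase subunit Camk2g (-1.28) and the channel subunit Cacna1a† (-1.16). Natriuretic peptide receptors in the list of prostaglandin, orphan and metabolite receptors moved in opposite directions, the clearance receptor Npr3 rising by 1.24 (SE 0.31) and the signalling receptor Npr1† falling by 1.27 (SE 0.27). That list had 4 of 33 called higher, with Ffar4, Ptges3† (1.03, under the limit at 1.00 without DMSO replicate 3 and 0.95 without ISO replicate 2) and Gpr153 (1.03, not passing at 0.98 without DMSO replicate 1 and 0.76 without DMSO replicate 2), and 6 lower, against 6.22% higher and 6.89% lower over all genes. Nnmt, nicotinamide N-methyltransferase, had 39, 32.3 and 51.7 CPM with DMSO and 244, 186 and 219 CPM with ISO (log2 fold change 2.41, SE 0.20, edgeR adjusted p 1.12e-10). In its list of NAD and polyamine metabolism, sirtuins and PARPs, 2 of 40 were called higher, the other being Odc1 (1.26, not passing at 1.04 without DMSO replicate 2 and 0.87 without ISO replicate 1), and 1 lower, Aox1 (-1.18, under the limit at -0.91 without DMSO replicate 2). Histone demethylases and methyltransferases had 4 of 46 called higher and 2 lower. These were Kdm7a† (1.13, under the limit at 0.99 in the lowest of the alternatives), Jmjd6 (1.29), Kdm3a (1.06, under the limit at 0.84 without ISO replicate 1 and 1.00 without ISO replicate 3) and Prdm16, which is also in this list, against Setd7† (-1.24) and Kdm1b† (-1.14, not passing at -0.95 without DMSO replicate 1, and under the limit at -0.94 without ISO replicate 2). Among cell cycle genes 2 of 49 were called higher, the cyclin Ccnl1 (1.47) and the growth arrest gene Gadd45g (2.74), and 3 lower, Cdkn2b (-1.13, under the limit at -0.95 without ISO replicate 3), Rbl2† (-1.01, under the limit at -0.99 without DMSO replicate 1, -0.76 without DMSO replicate 2 and -0.86 without ISO replicate 3) and Gadd45b (-1.35, not passing at -1.26 without DMSO replicate 1 and -1.17 without ISO replicate 2 or in DESeq2). Rab GTPases and their regulators had 6 of 82 called lower and 2 higher, Rab20† (1.88) and Rab44 (1.44, not passing at 1.44 without DMSO replicate 1, 1.13 without DMSO replicate 3 and 1.16 without ISO replicate 2). Interferon-stimulated genes had 2 of 39 called higher, Isg20 (1.36) and Oasl1† (1.09, not passing at 0.66 without DMSO replicate 1, 0.96 without ISO replicate 2 and 0.99 without ISO replicate 3), and none lower.

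**Figure D3:**
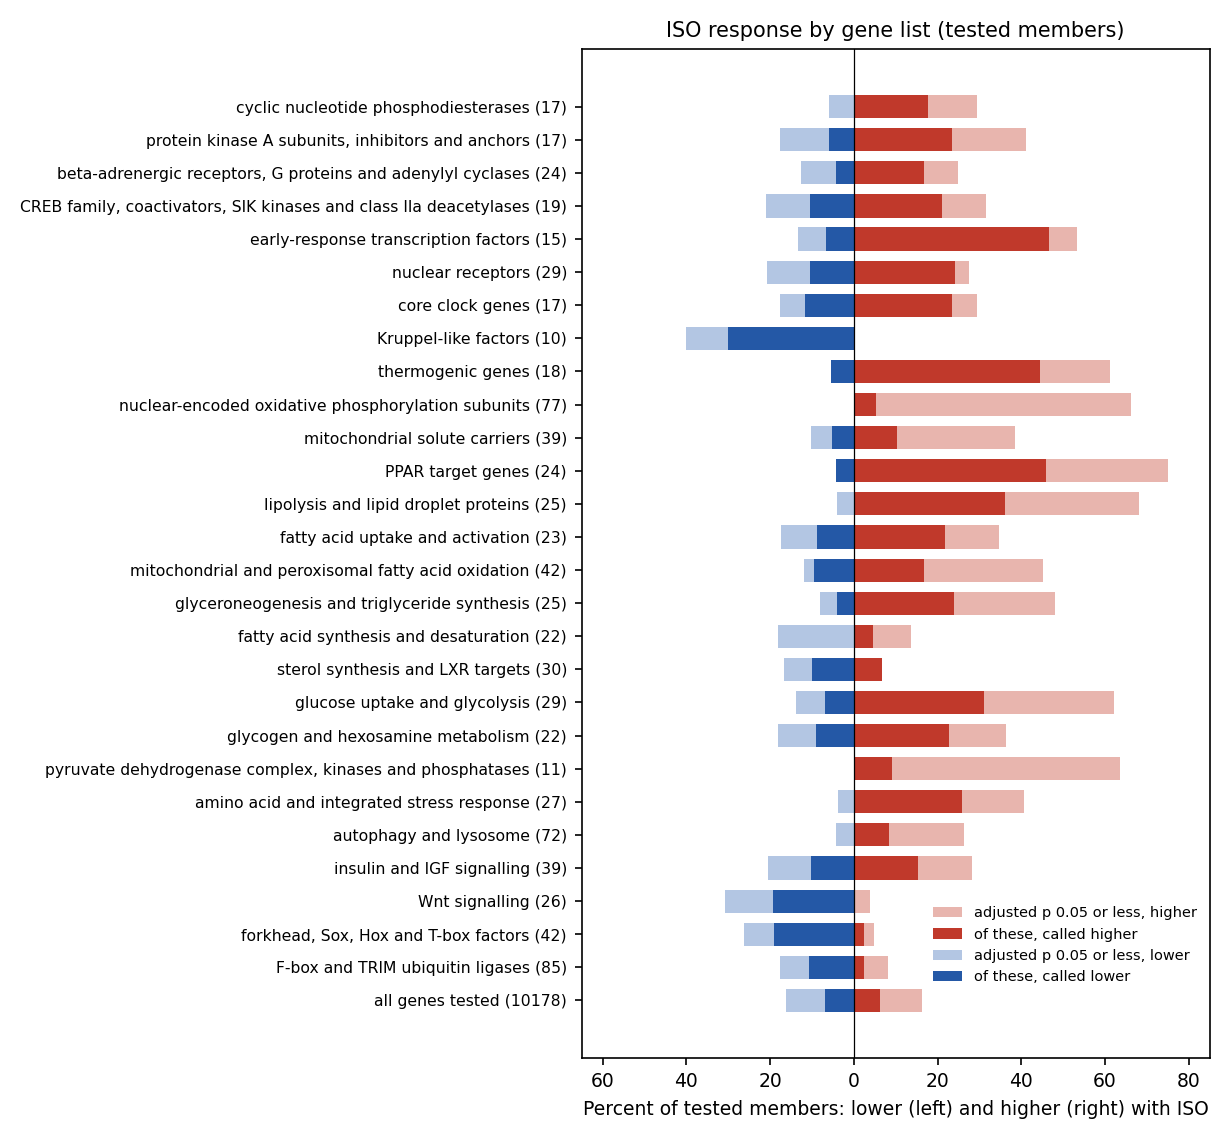
Share of each list's tested members (number in brackets) that passed an adjusted p of 0.05 higher (right, light red) or lower (left, light blue) with ISO, in percent, with the part past the fold change limit in dark colour. Oxidative phosphorylation subunits pass widely but stay mostly under the limit, PPAR targets and thermogenic genes hold the most dark red on the metabolic side, and the bottom bar gives all 10178 genes.

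The share of genes called lower differed with their level. With the tested genes split by mean CPM in the DMSO libraries without Dox, which are not in the contrast, into 5 groups of equal size, the share called lower was 10.9% in the lowest group (0.297 to 15.5 CPM), then 9.58%, 6.78% and 3.93%, and 3.24% in the highest. The share called higher was 9.43% in the lowest group and 5.16% to 5.55% in the others. The count filter spanned all groups of cells. Some genes of the lowest group may thus have been tested only because another group, such as ISO with Dox, was high. The part of the filter in the shares of that group was not tested. The split by DMSO without Dox was chosen after seeing the data, because a level taken over the 6 libraries of the contrast moves with the change itself. By that level the share called higher was 4.91% in the lowest group and 11.4% in the highest, and the share called lower 15.6% and 1.62%. In DMSO with Dox the median level was 32.3 CPM for genes called higher, 24.9 CPM for those called lower and 39.9 CPM for all tested. Genes called higher were counted over a median of 27764 bases, those called lower over 15443 and all tested genes over 20776. Per kb counted, the median level in DMSO was 1.35 CPM for genes called higher, 1.83 for those called lower and 2.12 for all tested. Genes that overlap another gene of the table made up 6.32% of those called higher, 12.6% of those called lower and 9.42% of all tested. The part of level and counted length in the balance of calls was not tested.

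**Figure D4:**
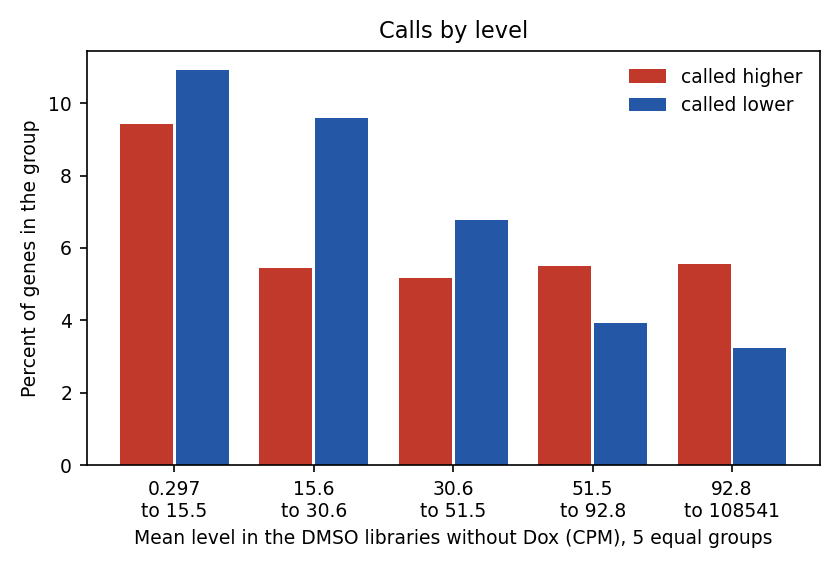
Percent of genes called higher (red bars) and lower (blue bars) with ISO in rescued cells, in 5 equal groups of the tested genes by mean level in the 3 DMSO libraries without Dox (CPM, horizontal axis). The blue bars fall from 10.9% to 3.24%, and the red bars stand at 9.43% in the lowest group and between 5.16% and 5.55% in the others. Some genes of the lowest group may have been tested only because another group of libraries was high.

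Whether the ISO response of rescued cells differed from that of knockdown cells was tested by the interaction, the response with Dox minus that without. It was called positive for 91 genes (0.894% of those tested) and negative for 42 (0.413%), with 72 and 58 under upper-quartile factors and 94 and 19 with library totals only. A replicate block gave more calls, 143 positive and 92 negative. Without ISO replicate 2 of the rescued cells the positive calls numbered 145, and without ISO replicate 1 or 3 or DMSO replicate 1 of the rescued cells, or DMSO replicate 1 of the knockdown cells, the negative calls numbered 25, 26, 25 and 26. Both responses share libraries with the interaction, so their values are given side by side. Prkar2b changed by 1.75 with Dox and by 0.02 without (interaction 1.73, SE 0.21, edgeR adjusted p 1.32e-05). The uncharacterised gene 4931406C07Rik† changed by 2.30 with Dox and by -0.64 without (interaction 2.94, SE 0.29, edgeR adjusted p 4.79e-07). Tmem120a changed by 2.00 and 0.43 (interaction 1.57, edgeR adjusted p 3.96e-05). In knockdown cells none of these 3 rose by 1 or more. Picalm, a clathrin assembly protein, changed by 1.54 and -0.08 (interaction 1.63, edgeR adjusted p 5.21e-05) and Acaa1b by 2.97 and 0.57 (interaction 2.40, edgeR adjusted p 6.13e-05). Lists with most positive interaction calls were PPAR targets, 6 of 24, and lipolysis and lipid droplet proteins, 5 of 25, with none negative in either. The lists were written with earlier results of these data known. Apmap (interaction 1.04) and Tmem120a are among the calls of the lipolysis list, so these counts are a description, not a test.

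Negative interactions covered both larger rises without Dox and falls that appeared with Dox. Gfpt2 rose by 2.63 with Dox and 4.42 without (interaction -1.79, edgeR adjusted p 0.00445). Xdh, xanthine dehydrogenase, rose by 1.58 and 3.27 (interaction -1.69, edgeR adjusted p 0.00708). Cyp2ab1, a cytochrome P450, rose by 1.15 (under the limit at 1.00 without DMSO replicate 3 and 0.94 without ISO replicate 2) and 2.83 (interaction -1.68, edgeR adjusted p 0.00616). The opposite kind was seen for Hdac7, at -1.09 with Dox and 0.60 without (interaction -1.69, edgeR adjusted p 0.000577), and for Dgkz†, a diacylglycerol kinase, at -1.24 and 0.40 (interaction -1.64, edgeR adjusted p 0.00175). Sterol synthesis and LXR targets held 5 of the negative calls and 1 positive call, the most negative calls of any list. Of the 10 genes named here from the interaction, Gfpt2, Xdh and Cyp2ab1 lost their call in a test against a fold of 1.5, and the other 7 kept theirs under every scaling, filter, tool, block, threshold and leave-one-out fit, as did the 10 named next from ISO against SR-3420.

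ISO was also set directly against SR-3420 in rescued cells, without the DMSO libraries. ISO was called higher than SR-3420 for 355 genes (3.49%) and lower for 342 (3.36%). The balance depended on the scaling. Of the genes called, 50.9% were higher with TMM factors, 44.3% with upper-quartile factors and 58.1% with library totals only. In SR-3420 replicate 1 with Dox the 10 most counted genes held 35.6% of counts, against 16.3% to 26.5% in the other libraries. Without that library 55.7% of the calls were higher. Pde10a differed by 3.19 (SE 0.16, edgeR adjusted p 3.23e-14), at 301, 242 and 299 CPM with ISO and a mean of 30.7 CPM with SR-3420. Vdr differed by 4.04 (SE 0.21, edgeR adjusted p 3.23e-14) and Cpne8 by 2.61 (edgeR adjusted p 8.62e-14). The sialyltransferase St3gal1 and the sulfotransferase Chst8 differed by 3.05 and 3.07 (edgeR adjusted p 3.95e-12 and 3.95e-12). Against DMSO, SR-3420 moved these 5 genes by 0.17, -0.58, -0.19, -0.43 and 0.22 on the log2 scale. In the other direction Slc6a6 differed by -1.37 (SE 0.15, edgeR adjusted p 7.53e-08), and Lasp1, an actin-binding protein, by -1.55 (edgeR adjusted p 1.92e-08). Fam13a and Arhgef10†, a guanine nucleotide exchange factor, differed by -1.59 and -1.70 (edgeR adjusted p 2.07e-08 and 4.71e-08) and Poln by -1.74 (edgeR adjusted p 2.81e-09). For the PPAR target list the median over DMSO was 0.96 with ISO and 1.04 with SR-3420, and for oxidative phosphorylation subunits 0.55 and -0.06, each pair sharing the DMSO libraries. Pdk4 did not differ between ISO and SR-3420 past the threshold (-0.47, SE 0.22, edgeR adjusted p 0.136), nor did Plin2 (-0.16, SE 0.22, edgeR adjusted p 0.646), which does not show that the levels were equal.

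**Figure D5:**
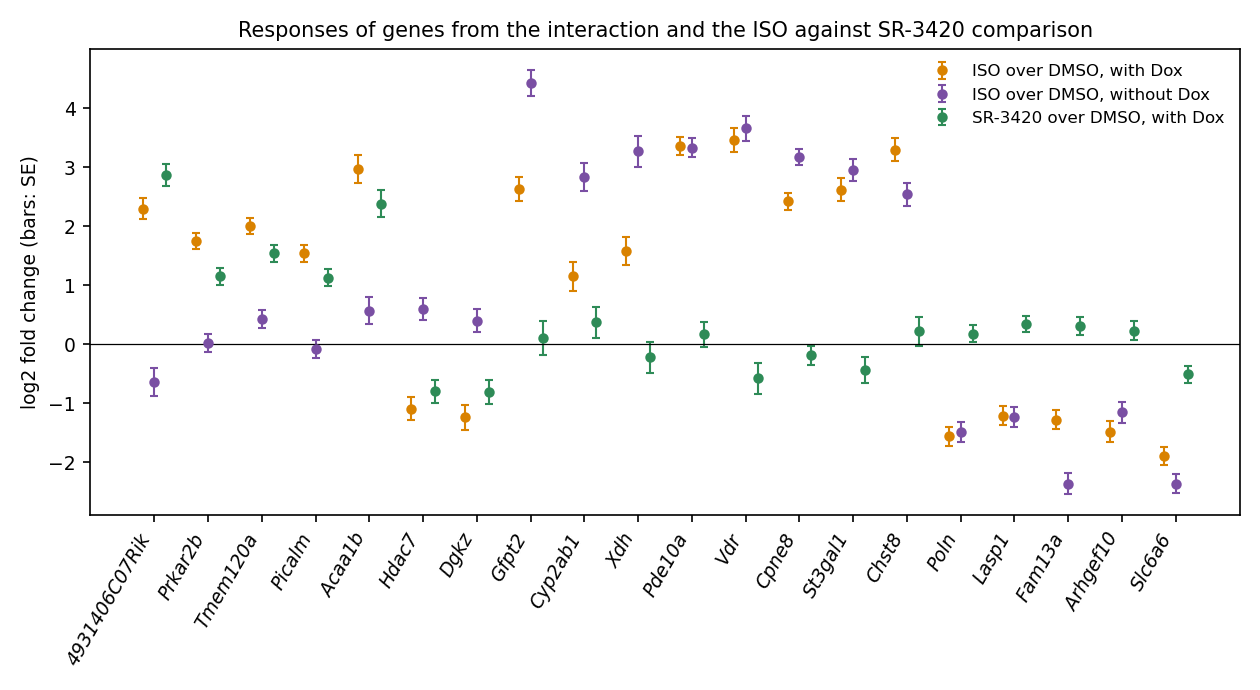
Log2 fold changes (points) with standard errors (bars) for the 20 genes named from the interaction and from ISO against SR-3420, for ISO with Dox (orange), ISO without Dox (purple) and SR-3420 with Dox (green), each against its own DMSO libraries. Prkar2b and Picalm lie near 0 without Dox, and Pde10a lies near 0 with SR-3420. The responses with Dox share the same 3 DMSO libraries.

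Some genes named by the study had counts too low for a test. Fgf21 had 0 counts in all 6 libraries. Elovl3 had 0, 0 and 1 counts with DMSO and 2, 8 and 3 with ISO. Acot4 had at most 2 counts in any library, and Nr1d1, which encodes the clock repressor REV-ERBα, had 6, 1 and 3 counts with DMSO and 9, 5 and 2 with ISO. All of these genes fell under the count filter, so their changes were not tested in the main fit. The Elovl3 counts with ISO all lay above those with DMSO.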

How the data were processed

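RNA of 18 libraries in 6 groups was sequenced by the authors, aligned to mm9 with STAR 2.4.2a, reduced to 1 read per position with HOMER (tools per the submitters' processing notes) and counted over genes by iRNA-seq. What they deposited were raw counts, with replicates not pooled; every count column matched 1 sample title. Depth was 689910 to 1956565 counts per library, and precision covers counting error and the spread between libraries only. Counts were TMM-scaled and filtered with filterByExpr, and edgeR 4.0.16 (R 4.3.3) quasi-likelihood models were fitted with 1 mean per group over the 18 libraries. The Benjamini-Hochberg adjustment covered every gene tested. Standard errors were the log2 fold change over the square root of F. Levels are CPM, and a gene with at most 3 counts in each DMSO library was given a lower bound of its fold, computed against 3 counts per library. Coordinates are mm9 and 1-based. A few genes and 1 list are not reported here. Promoter windows were joined by symbol, and 1696 tested genes had more than 1 window.

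The members, the 60 gene lists and the tests were chosen with earlier results of these data known. Text genes came from the design's rule: Abhd5; the 10 genes per direction with the smallest p and no overlap between groups; in each list up to 5 passing members with the smallest p and up to 2 abundant members that did not pass; genes the study names; and the 5 smallest p per direction in the interaction and in ISO against SR-3420. Printed values come from fits without pairs, with a replicate block as an alternative. Replicate numbers paired the samples for ISO against DMSO with Dox, where same-numbered libraries deviated together in every pair (r = 0.233, 0.262 and 0.165 across genes); the pairing comes from the data, as the labels do not explain the numbers. In simulated counts of 10009 genes the test of ISO against DMSO recovered 72% of 2-fold and 97% of 4-fold changes, and the interaction 28% and 89%. Alternatives were other scalings, filters, thresholds, a replicate block, fewer samples, DESeq2 1.42.0, limma-voom (limma 3.58.1), leaving out each library, and genes that overlap no other; 1 split of genes by level was added after seeing the data. ISO and DMSO libraries without Dox and SR-3420 libraries with Dox entered only the tests of difference, and SR-3420 without Dox only the shared estimate of the spread.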

Additional observations from a re-analysis of the deposited data

Results flagged for a closer look

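The ISO response differed between rescued and knockdown cells, by an interaction with an edgeR adjusted p of 0.05 or less, for the following genes named above. The difference, with minus without Dox on the log2 scale, was 2.94 for 4931406C07Rik, 1.73 for Prkar2b, 1.57 for Tmem120a, 1.63 for Picalm, 2.40 for Acaa1b, -1.69 for Hdac7, -1.64 for Dgkz, -1.79 for Gfpt2, -1.68 for Cyp2ab1 and -1.69 for Xdh, which the text above describes.

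Among lipid and PPAR-linked genes, the difference was 1.63 for Acsl1 (2.57 with Dox and 0.94 without), 1.40 for Dgat1 (3.02 with Dox and 1.62 without), 1.73 for Agpat9 (2.58 with Dox and 0.85 without), 1.76 for Pdk4 (2.21 with Dox and 0.45 without), 1.20 for Mgll (1.19 with Dox and -0.01 without), 1.04 for Apmap (3.05 with Dox and 2.01 without), 0.96 for Acadl (1.23 with Dox and 0.27 without), 1.92 for Fabp4 (2.38 with Dox and 0.46 without), 1.58 for Ffar4 (3.52 with Dox and 1.94 without), 0.74 for Crat (1.84 with Dox and 1.10 without) and 1.08 for Fam13a (-1.28 with Dox and -2.36 without). Among genes of glucose, pyruvate and hexosamine use, the difference was 1.41 for Pfkfb3 (1.66 with Dox and 0.25 without), -1.18 for Uap1 (2.84 with Dox and 4.02 without), 0.81 for Dlat (0.82 with Dox and 0.01 without) and 0.83 for Mpc1 (1.25 with Dox and 0.42 without). Among signalling and cAMP pathway genes, the difference was 1.54 for Irs1 (3.36 with Dox and 1.83 without), 0.78 for Sik2 (1.37 with Dox and 0.59 without), 0.94 for Wwtr1 (1.30 with Dox and 0.36 without), 0.97 for Pde3b (1.69 with Dox and 0.72 without) and 1.61 for Nrg4 (2.14 with Dox and 0.53 without). Among transcriptional regulators, the difference was 1.19 for Ncoa1 (1.35 with Dox and 0.16 without), 0.99 for Kdm3a (1.06 with Dox and 0.07 without) and -0.94 for Rara (-0.87 with Dox and 0.07 without). Among sterol genes and Abhd5, the difference was -1.52 for Mvk (-1.12 with Dox and 0.41 without), -1.26 for Hsd17b7 (1.10 with Dox and 2.35 without) and -0.98 for Abhd5. For the others, the difference was 1.37 for Csrp2 (2.65 with Dox and 1.28 without), 1.10 for Aifm2 (1.93 with Dox and 0.84 without), 0.88 for 3110043O21Rik (2.31 with Dox and 1.44 without), 1.02 for Tpcn2 (2.71 with Dox and 1.69 without), -0.75 for Cpne8 (2.42 with Dox and 3.17 without), 2.06 for Dnajb9 (1.65 with Dox and -0.40 without) and 0.72 for Atg101 (1.52 with Dox and 0.80 without). Of these, those with a difference under 1 in size were not called by the rule used in the text, and no explanation was tested.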

How the results depend on the processing

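Of 272 genes named above with an edgeR adjusted p of 0.05 or less, 237 kept it under every alternative that gave a value and 35 lost it in at least 1; none changed direction, and 41 of 60 list medians kept their sign throughout. With at least 10 counts in every sample, which tests fewer genes, ISO against DMSO gave 395 genes higher and 299 lower and ISO against SR-3420 201 and 145. A test against a fold of 1.5 gave 417 lower with ISO, 20 positive and 5 negative interactions, and 229 and 130 against SR-3420. Without a limit on the fold change the counts were 1669 and 1640 for ISO against DMSO, 164 positive interactions, and 1056 and 960 against SR-3420. At an adjusted p of 0.01 there were 58 positive and 11 negative interactions, and 219 genes lower than with SR-3420. Negative interactions numbered 19 with library totals only, 82 with no filter on low counts and 24 in DESeq2. Leaving out 1 library at a time gave 581 to 728 genes higher and 586 to 698 lower, 62 to 145 positive and 25 to 52 negative interactions, and 314 to 409 and 297 to 346 against SR-3420. The cause of these differences was not tested where fewer genes or samples do not show it.

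With the replicate block, ISO against DMSO gave 665 higher and 742 lower. No named gene that had passed lost its adjusted p under the block, a count that did not include the fold limit. For the interaction and for ISO against SR-3420 the numbers were not taken as pairs, since some same-numbered pairs correlated at no more than 0.079 and 0.085. Yet every same-numbered pair of these groups correlated positively, at 0.146, 0.252 and 0.128 for ISO without and with Dox. What a number marks was not tested. The block gave 143 positive and 92 negative interactions and 378 and 389 genes against SR-3420, and every ISO and SR-3420 library with Dox correlated best with its own number.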
